A study of Rattus norvegicus with 10 samples.

Results

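The comparison described here is between ischemic cortex that received neuregulin-1 (NRG1) and ischemic cortex that received only the vehicle. It covers 6 of the 10 arrays in the series, chosen by their titles: 3 from rats with middle cerebral artery occlusion and NRG1 (MCAO+NRG1) and 3 from rats with the occlusion and vehicle (MCAO). All animals were adult male Sprague-Dawley rats, and RNA came from the left cortex 3 hours after surgery, with 1 array per animal. In both groups a filament occluded the left middle cerebral artery permanently. The vehicle was 1% bovine serum albumin in phosphate-buffered saline, and NRG1 was the EGF-like domain of the beta form, given as a bolus into the internal carotid artery. The treatment notes place NRG1 just before the occlusion, while the sample descriptions place it after, so the labels alone do not settle the order. The methods of the study state that NRG1 and vehicle were both injected by the same route just before the occlusion. The other 4 arrays are from sham-operated rats, which had the surgery without the filament. They are used for the common estimate of spread and for levels without ischemia. A whole piece of cortex was measured, and fewer cells of a type and less RNA per cell cannot be told apart in such bulk samples.

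NRG1 is a growth factor that binds ErbB3 and ErbB4, members of a receptor tyrosine kinase family. They signal through the ERK and PI3K-Akt pathways, often paired with ErbB2. ERK activity, calcium entry and ischemia all switch on immediate early genes, whose transcripts appear within minutes and encode AP-1, EGR and NR4A transcription factors. ERK also induces its own inhibitors, among them dual-specificity phosphatases (Dusp genes) and Sprouty proteins. These classes, together with inflammatory genes and markers of the cell types in cortex, are the groups followed below. The gene lists were written with earlier results of these data known. Their counts and ranks describe these arrays and are not independent evidence.

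The Affymetrix Rat Gene 2.0 ST array reads each transcript with a set of probes, and the values are on a log2 scale, where 1 unit is a 2-fold difference. A single gene symbol was listed for 18511 of the 36685 probe sets, and these were compared. Olfactory and vomeronasal receptor probe sets, most of which read genes silent in cortex, served as a gauge of background. Their 95th percentile was 4.64, and genes with a mean over all arrays below it are called dim. All 21 neuron markers measured were above that level, as a sample of cortex requires, with the cortical factor Tbr1 at a mean of 9.93 over the 10 arrays. Markers of striatal projection neurons were also above it, 14 of 14, with Drd2 at a mean of 8.16. One MCAO array stood apart in its overall level. The median over single-symbol probe sets was 6.12 on MCAO replicate 3, against 5.80 and 5.82 on the other MCAO arrays, 5.79 to 5.81 on the 3 MCAO+NRG1 arrays and 6.05 to 6.11 in sham. The difference between the groups is therefore given on the deposited values, on values with each array centred on its own median, and without MCAO replicate 3. In correlation across probe sets, MCAO+NRG1 replicate 2 was about as distant. Its r with the other occluded arrays was 0.979 to 0.988, against 0.979 to 0.9855 for MCAO replicate 3. MCAO+NRG1 replicate 1 was closest to MCAO replicate 1 (0.9926), above its 0.9863 and 0.9903 within its own group. The list counts were not repeated without MCAO+NRG1 replicate 2.

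Across all genes the difference was small. At a Benjamini-Hochberg adjusted p under 0.05 (limma, all 10 arrays in the fit), 1 of 18511 probe sets was called, or 0.0054%, and it was lower with NRG1. No probe set was called without MCAO replicate 3. At an unadjusted p under 0.05, which is no call, 153 probe sets were higher with NRG1 (0.827%) and 441 were lower (2.38%). The balance changed with the overall level of the arrays: after median centring 385 were higher (2.08%) and 191 lower (1.03%), and without MCAO replicate 3 the numbers were 223 and 222 (1.2% each). The median difference over all probe sets was -0.08 on deposited values, 0.03 after centring and 0.01 without that array. On the deposited values 31.4% of probe sets had a difference above 0, after centring 56.9% did, and without MCAO replicate 3 52.9% did. Every NRG1 array was above every vehicle array for 1.47% of probe sets and below for 4.27%, and after centring for 4.41% and 2.33%. Centring raised every difference by the same amount, so genes near 0 have no settled direction. A difference of at least 1 log2 unit in size was seen for 17 probe sets on deposited values, 13 of them higher with NRG1. After centring there were 23, with 20 higher, and without MCAO replicate 3 there were 16, with 9 higher. The genes named below as higher or lower, other than the one called, had adjusted p values between 0.115 and 0.999 in this limma fit and are described by their values.

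**Figure D1:**
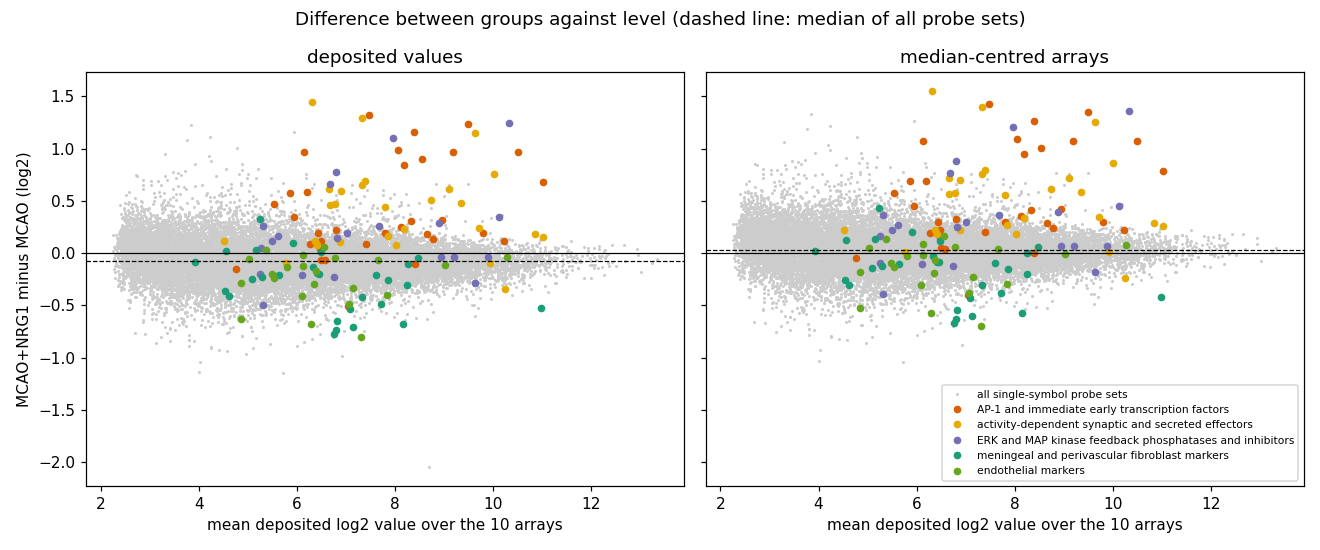
Each point is 1 of 18511 probe sets, with its mean log2 value over the 10 arrays on the x axis and the MCAO+NRG1 minus MCAO difference in log2 on the y axis, for deposited values (left) and median-centred arrays (right); colours mark 5 gene lists and the dashed line is the median of all probe sets. Immediate early, effector and phosphatase genes lie among the highest points at middle to high levels, and the lone point near -2 is Or8h7b.

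The one called gene was Or8h7b, which belongs to the olfactory receptor family of odorant-sensing G protein-coupled receptors. Its log2 values were 7.73, 7.95 and 8.02 on the MCAO+NRG1 arrays and 10.09, 9.55 and 10.19 on the MCAO arrays. The groups were far apart and did not overlap, and the sham mean was 8.36 ± 0.41 (SD, n = 4), between them but nearer the NRG1 arrays. The difference was -2.05 ± 0.23 (SE), a ratio of 0.242, with an adjusted p of 0.00295 by limma. It was -1.92 without MCAO replicate 3 and -1.97 without MCAO replicate 1, with adjusted p of 0.132 and 0.0668, so the call needed each of these arrays, while the gap between the groups was about as large without them. Unlike most receptors of its family on this array, its probe set was well above the background level. The family has many similar copies, so that the assignment of this signal to Or8h7b is uncertain.

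The feedback inhibitors of ERK and MAP kinases included the gene with the smallest p among those that were higher with NRG1. Dusp6, the cytoplasmic phosphatase that removes phosphate from ERK, had log2 values of 9.05, 9.43 and 8.83 with NRG1 and 8.23, 7.87 and 7.90 with vehicle. Every NRG1 array was above every vehicle array, and both groups were above the sham mean of 7.09 ± 0.15 (SD, n = 4). The difference was 1.10 ± 0.19, a ratio of 2.15 (adjusted p = 0.134), and it was 1.05 without MCAO replicate 3. Dusp1, a nuclear phosphatase of p38, JNK and ERK, read 11.88, 11.40 and 10.67 with NRG1 and 10.31, 10.46 and 9.43 with vehicle. The groups again did not overlap, though the lowest NRG1 array was only slightly above the highest vehicle array. The sham mean of Dusp1 was 9.79 ± 0.38 (SD, n = 4), which lies above the value of MCAO replicate 3, and the difference of 1.25 ± 0.31 came down to 0.93 without that array. Dusp4, another nuclear phosphatase, was at 7.40, 7.38 and 6.98 against 6.81, 6.84 and 6.14. Its difference was 0.66 ± 0.21, and the groups did not overlap.

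Of 21 measured genes on this list of 22, 13 had a difference above 0 and the median difference was 0.14, against -0.08 over all probe sets. At an unadjusted p under 0.05, 4 were higher (Dusp6, Dusp1, Dusp4 and Dusp5) and 1 was lower, Dusp9, at -0.50 ± 0.19. The share for all probe sets was 0.827% higher and 2.38% lower. Without MCAO replicate 3, the count was 3 higher and 0 lower (1.2% each). Not all members of the class were higher by as much. The Sprouty genes Spry2 and Spry4, whose products act upstream of Raf, were higher by 0.29 ± 0.18 and 0.12 ± 0.19. These differences were smaller than those of Dusp6, Dusp1 and Dusp4, and neither passed an unadjusted p of 0.05 in limma. The 95th percentile of the difference over all probe sets was 0.24. Errfi1, which encodes an inhibitor that binds EGFR-family kinases directly, was at 10.38, 10.65 and 10.27 against 10.23, 10.01 and 10.02, with a difference of 0.35 ± 0.18. These values just failed to overlap.

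Promoter sequence was available from RefSeq (GRCr8) for part of the immediate early, effector and feedback inhibitor genes, as windows of 300 bases that run from 250 before to 50 after the transcript start. The windows of Dusp1 and of Slc25a25, a mitochondrial ATP-Mg/phosphate carrier described below, are shown because both genes were higher without overlap and both contain the full cyclic AMP response element TGACGTCA, in capitals. Egr2 is shown for its CArG box, the site bound by serum response factor, also in capitals. They are given 5′ to 3′ on the strand of the gene.
Dusp1, chr10:17184603-17184902, plus strand: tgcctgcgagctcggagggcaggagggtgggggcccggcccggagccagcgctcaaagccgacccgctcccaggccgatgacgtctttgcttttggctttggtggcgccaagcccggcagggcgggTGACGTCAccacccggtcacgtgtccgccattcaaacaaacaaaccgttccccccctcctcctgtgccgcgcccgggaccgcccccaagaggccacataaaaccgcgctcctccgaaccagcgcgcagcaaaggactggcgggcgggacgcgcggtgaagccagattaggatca
Slc25a25, chr3:36116532-36116831, minus strand: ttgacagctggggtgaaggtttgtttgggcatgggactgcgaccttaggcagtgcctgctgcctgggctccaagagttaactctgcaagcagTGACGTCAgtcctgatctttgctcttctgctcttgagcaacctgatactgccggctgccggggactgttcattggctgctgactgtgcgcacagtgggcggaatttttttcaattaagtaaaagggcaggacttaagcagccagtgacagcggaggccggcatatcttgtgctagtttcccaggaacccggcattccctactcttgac
Egr2, chr20:21054392-21054691, minus strand: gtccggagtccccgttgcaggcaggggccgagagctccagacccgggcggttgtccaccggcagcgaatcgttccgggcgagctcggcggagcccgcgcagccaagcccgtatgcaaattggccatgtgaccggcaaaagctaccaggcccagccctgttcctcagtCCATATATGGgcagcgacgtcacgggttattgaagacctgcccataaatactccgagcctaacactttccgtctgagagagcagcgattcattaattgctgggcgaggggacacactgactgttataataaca
The response element was in the windows of 4 of 23 immediate early transcription factor genes with a window, 4 of 22 effector genes and 1 of 20 feedback inhibitor genes, against 2.00% of 27457 genes with a window. The CArG box was in 4, 0 and 1 of the same genes, against 1.77%. The AP-1 site TGANTCA was in 0, 1 and 1 of them, against 8.04%, and the ETS core CCGGAA in 7, 2 and 4, against 16.5%. All were searched on both strands, and a gene counted when any of its windows held the motif. An element or its absence in this window is a description of these letters only.

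The AP-1 and immediate early transcription factors were higher with NRG1 as a group of values, but the arrays of the groups overlapped. The counts are a description, since the list was written with earlier results of these data known. Of 33 measured genes on this list of 34, 28 had a difference above 0 on deposited values, 31 after centring and 31 without MCAO replicate 3. The median difference was 0.25 on deposited values, 0.36 after centring and 0.25 without that array, against -0.08, 0.03 and 0.01 over all probe sets. At an unadjusted p under 0.05, 10 were higher and 0 lower (0.827% and 2.38% of all probe sets), and the 10 were Egr2, Npas4, Junb, Egr4, Nr4a1, Ier2, Fos, Nr4a3, Egr1 and Csrnp1. Without MCAO replicate 3 the number higher was 6 (1.2%). For 5 of the 33, every NRG1 array was above every vehicle array, compared with 1.47% of all probe sets. Relative to the sham mean, the median of the list on each array was 0.82, 1.00 and 0.34 with NRG1 on deposited values. With vehicle it was 0.59, 0.52 and 0.30. NRG1 replicate 3 thus lay below both other NRG1 arrays and below 2 vehicle arrays.

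Egr2, a zinc finger factor known from Schwann cells and induced by activity in neurons, had the largest difference on the list. It read 9.17, 9.24 and 8.52 with NRG1 and 8.66, 7.10 and 7.22 with vehicle, with a difference of 1.32 ± 0.38. MCAO replicate 1 was above the lowest NRG1 array, so the groups overlapped. Npas4, a neuronal factor induced by calcium entry, was at 12.30, 12.43 and 11.24 against 11.70, 10.79 and 9.76. Its sham mean was 6.65, far below both occluded groups, and the difference between the treatments was 1.24 ± 0.41, with overlap. Fos, a partner in the AP-1 dimer, gave 11.29, 11.44 and 10.52 against 10.44, 10.22 and 9.70, and the groups did not overlap (0.97 ± 0.32).

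Junb, the AP-1 member that forms dimers with Fos, was at 9.87, 10.05 and 8.73 with NRG1 and 9.14, 8.22 and 7.81 with vehicle, with overlap. Orphan nuclear receptors of the NR4A class were higher by 0.97 ± 0.29 for Nr4a1 and 0.84 ± 0.24 for Nr4a3. Nr4a3 values were 9.06, 9.44 and 9.24 against 8.97, 8.37 and 7.88, with no overlap on either scale. Other members gave smaller differences. Jun, which unlike Junb was close in both groups, differed by 0.18 ± 0.19. The lowest member was Klf10, a Krüppel-like repressor induced by TGF-beta, at -0.50 ± 0.28 (unadjusted p = 0.0911).

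**Figure D2:**
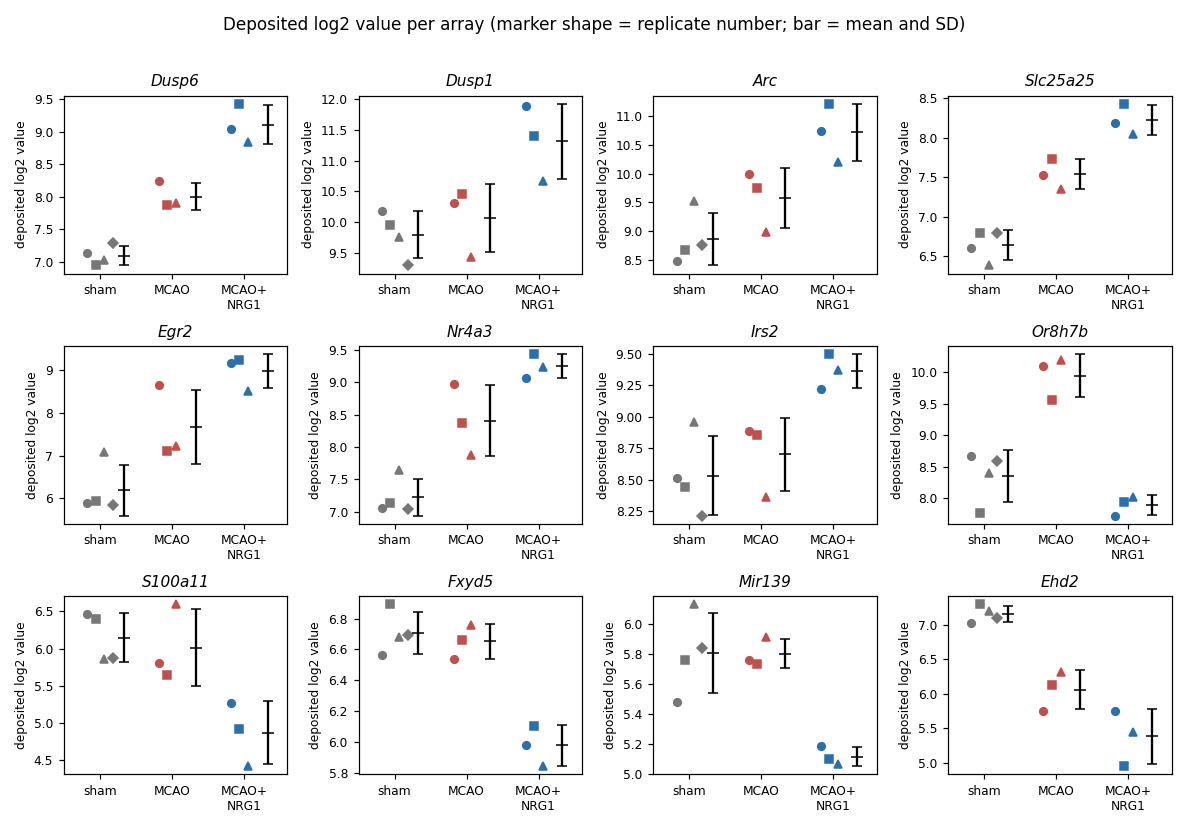
Deposited log2 value of 12 genes on each array of the sham (n = 4), MCAO (n = 3) and MCAO+NRG1 (n = 3) groups; the marker shape gives the replicate number and the bar the mean and SD. Dusp6, Dusp1, Arc, Slc25a25, Nr4a3 and Irs2 are higher on every MCAO+NRG1 array than on any MCAO array, Egr2 overlaps through 1 MCAO array at 8.66, and Or8h7b, S100a11, Fxyd5, Mir139 and Ehd2 lie lower, with Ehd2 of the first NRG1 array beside the lowest MCAO array.

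Genes that act downstream in activated neurons and secreted effectors showed the largest median of the 30 lists on deposited and centred values. That rank is a description only, since the lists were written with earlier results of these data known. Of 27 measured genes on this list of 34, 24 had a difference above 0, and the median was 0.45 on deposited values and 0.55 after centring. Without MCAO replicate 3 it was 0.24, below the 0.25 of the transcription factors. At an unadjusted p under 0.05, 9 were higher and 0 lower (0.827% and 2.38% of all probe sets), and without MCAO replicate 3 the numbers were 3 and 0 (1.2% each). Arc, which organizes the removal of AMPA receptors from synapses, was at 10.74, 11.21 and 10.21 with NRG1 and 10.001, 9.74 and 8.98 with vehicle. There was no overlap, and the sham mean was 8.86 ± 0.46 (SD, n = 4). The difference was 1.15 ± 0.30, a ratio of 2.21, or 0.85 on the log2 scale without MCAO replicate 3. Slc25a25 was at 8.18, 8.43 and 8.05 against 7.52, 7.74 and 7.35. Its groups also did not overlap, and its difference of 0.69 ± 0.18 changed little, to 0.59, without that array.

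Ccn1, a matrix-bound growth regulator, had the largest difference of the list, 1.45 ± 0.44, but also a wide spread, with 8.04, 8.76 and 6.67 against 7.42, 6.23 and 5.47. Gadd45g, a stress-induced regulator of p38 and JNK signalling, also had a wide spread, with 9.15, 9.62 and 7.85 against 8.13, 7.89 and 6.73. In both genes, the third NRG1 array lay below the first vehicle array. Ptgs2, which encodes the prostaglandin-forming enzyme COX-2, did not overlap, with 11.37, 11.40 and 11.13 against 10.996, 10.51 and 10.13. Bdnf, the neurotrophin that acts on TrkB, read 7.59, 7.50 and 7.40 against 7.20, 7.20 and 6.26. Its difference of 0.61 ± 0.23 was 0.29 without MCAO replicate 3, and that array was the lowest. Rgs2, which shortens G protein signalling, behaved alike, with a difference of 0.61 ± 0.24 that was 0.41 without it.

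**Figure D3:**
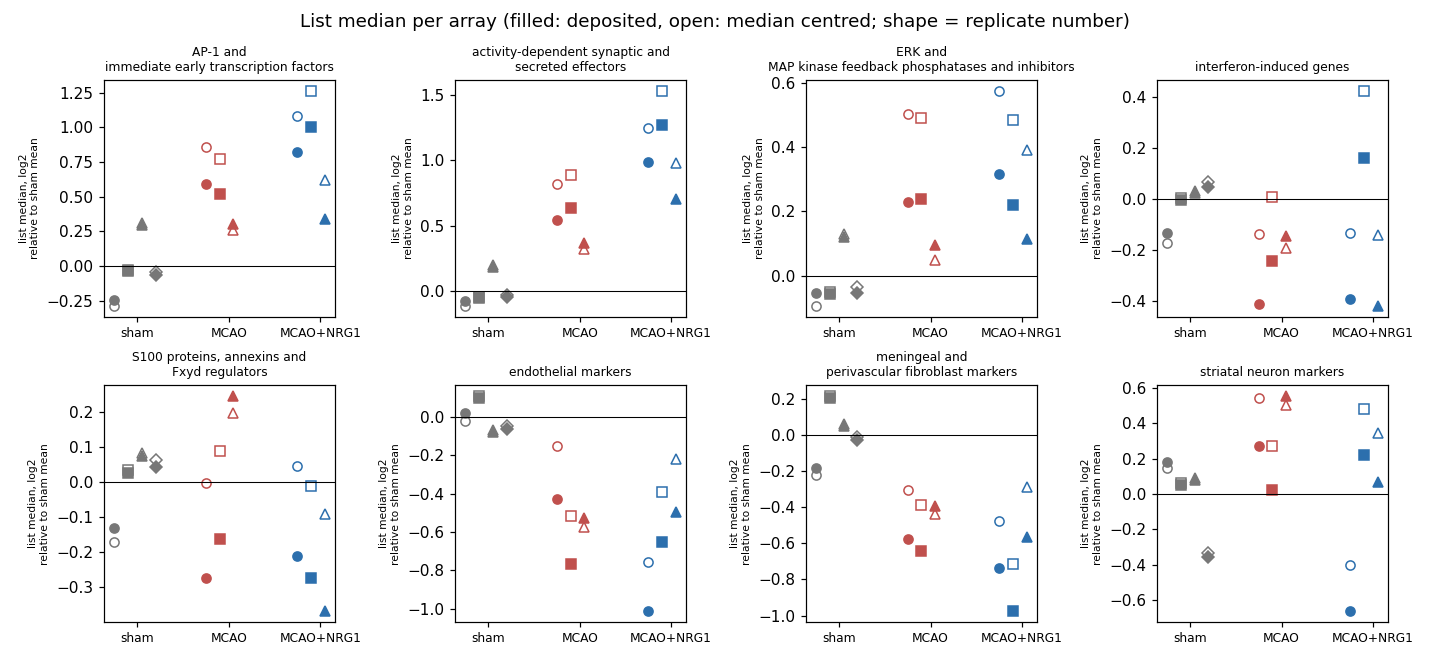
Median of 8 gene lists on each array, in log2 relative to the sham mean of each gene, for deposited (filled) and median-centred (open) values; the marker shape gives the replicate number. On deposited values the effector list separates MCAO+NRG1 (0.70 to 1.27) from MCAO (0.37 to 0.64) by a narrow gap, and for the other 7 lists the arrays of the groups overlap.

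Inflammatory cytokines, chemokines and NF-kB targets showed a mixed picture. The median difference over 36 measured genes was 0.08 on deposited values, and it was -0.0029 without MCAO replicate 3. Relative to sham, the deposited median of the list was 0.15, 0.71 and 0.05 on the NRG1 arrays. It was 0.10, 0.27 and 0.09 on the MCAO arrays, so that NRG1 replicate 2 was the high array and the groups overlapped. At an unadjusted p under 0.05, 6 were higher and 1 lower (0.827% and 2.38% of all probe sets), and without MCAO replicate 3 the counts were 3 and 2 (1.2% each). Nfkbid, a nuclear IkB protein that modulates NF-kB target genes, was at 6.61, 6.68 and 6.07 with NRG1 and 5.93, 5.89 and 5.53 with vehicle. These did not overlap, and the difference was 0.67 ± 0.19. Rel, the NF-kB subunit c-Rel, was at 7.76, 7.49 and 7.89 against 7.40, 7.24 and 7.18. Its groups were also apart, by a small margin, with a difference of 0.44 ± 0.17. Ccl4 and Cxcl2, chemokines for monocytes and neutrophils respectively, were higher by 0.76 ± 0.25 and 0.81 ± 0.32, and both overlapped. Nfkbia, the cytoplasmic inhibitor IkB-alpha, was higher by 0.45 ± 0.20. Il1r1, the signalling receptor for interleukin-1, was the lower one, at -0.43 ± 0.19. Its arrays were apart from vehicle on deposited values and overlapped after centring, where the difference was -0.32. Peli1, an E3 ubiquitin ligase of Toll-like receptor signalling, was at 9.20, 9.82 and 9.75 against 9.04, 9.04 and 9.06 (0.55 ± 0.18).

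A single NRG1 array carried the interferon-induced genes. Ifit3, an antiviral protein with tetratricopeptide repeats, was at 4.05, 6.56 and 4.34 with NRG1 and 4.13, 3.82 and 3.68 with vehicle. The high value was on NRG1 replicate 2, and its other arrays were near vehicle. Ifit2 showed the same, with 6.09, 8.61 and 6.25 against 6.40, 6.11 and 6.18. Rsad2, which encodes viperin, was at 4.29, 7.39 and 4.92 against 4.80, 4.70 and 4.55. Cxcl11, a ligand of CXCR3 on T cells, was at 3.28, 6.55 and 3.39 against 3.30, 3.16 and 3.51, so that only that array was above the background level. Without NRG1 replicate 2, the differences were 0.32 for Ifit3, 0.15 for Ifit1, 0.01 for Cxcl11, -0.06 for Ifit2 and -0.07 for Rsad2. With it they were 1.11, 0.95, 1.08, 0.75 and 0.85. Of 28 measured genes of this class, 2 were higher at an unadjusted p under 0.05 and 1 was lower, where 0.827% and 2.38% of all probe sets were. The 2 higher were Ifit1 and Ifit3, both dim on average. Without MCAO replicate 3, 0 were higher and 1 was lower (1.2% each). The lower one, Ifitm7, a membrane protein on the same list, was at 4.45, 3.98 and 4.45 against 4.997, 5.32 and 5.39. It did not overlap, but it was dim on average.

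**Figure D4:**
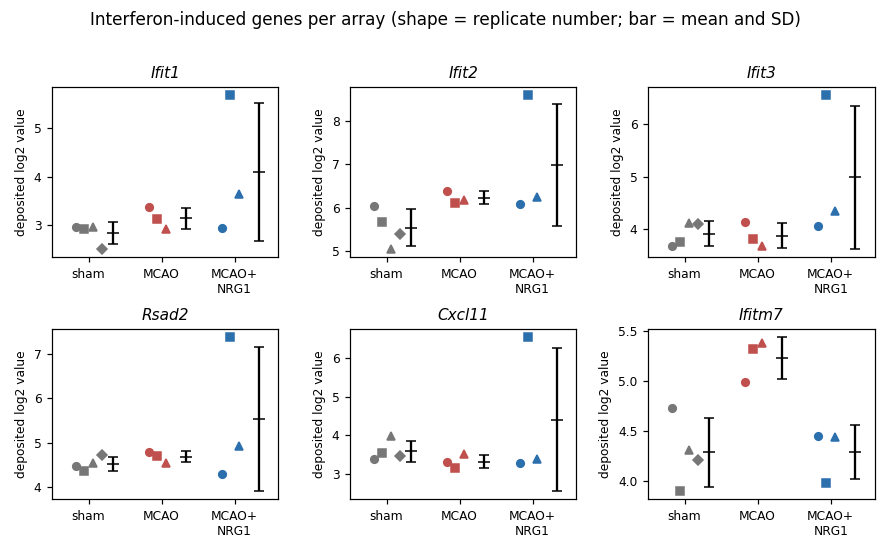
Deposited log2 value of 6 interferon-induced genes on each array of the sham (n = 4), MCAO (n = 3) and MCAO+NRG1 (n = 3) groups; the marker shape gives the replicate number and the bar the mean and SD. The second MCAO+NRG1 array is the high point for Ifit1 (5.69), Ifit2 (8.61), Ifit3 (6.56), Rsad2 (7.39) and Cxcl11 (6.55), and Ifitm7 is lower on all 3 MCAO+NRG1 arrays.

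Genes of the neuregulin and ErbB system themselves did not separate the groups. Of 20 measured, 0 passed an unadjusted p of 0.05 in either direction, where 3.21% of all probe sets did, and the differences ran from -0.27 to 0.18. Erbb4, the NRG1 receptor of interneurons, read 8.48, 8.72 and 9.06 with NRG1 and 8.48, 8.69 and 8.62 with vehicle (0.15 ± 0.18). Erbb3, which is found mainly in the oligodendrocyte lineage in brain, differed by -0.05 ± 0.16. Erbb2, the co-receptor without a ligand of its own, was dim and differed by 0.18 ± 0.25. The endogenous Nrg1 transcript was at 5.89, 5.89 and 6.06 against 5.98, 5.89 and 5.90, a difference of 0.02 ± 0.15. The injected EGF-like domain is a protein and is not read by the array.

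On the list of PI3K, Akt, insulin and IGF signalling genes, 1 of 26 measured was higher at an unadjusted p under 0.05 and 0 were lower (0.827% and 2.38% of all probe sets). The list includes Pdk1, a pyruvate dehydrogenase kinase that is also on the hypoxia-inducible list. The gene that passed was Irs2, an adaptor between the insulin and IGF-1 receptors and PI3K. It read 9.22, 9.50 and 9.37 with NRG1 and 8.88, 8.85 and 8.37 with vehicle, with no overlap and a difference of 0.66 ± 0.20. The related adaptor Irs1 went the other way, at 5.79, 5.30 and 5.98 against 5.96, 5.81 and 6.53, with overlap and a difference of -0.41 ± 0.22 (unadjusted p = 0.0827). Without MCAO replicate 3 the difference of Irs1 was -0.20, while that of Irs2 was 0.49.

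Some of the genes that the study followed by RT-PCR or placed at the nodes of its network were chosen on these arrays, so the counts of this list are not independent evidence. Of 9 measured, 2 were lower at an unadjusted p under 0.05 (2.38% of all probe sets): Kcnn1, the small-conductance calcium-activated potassium channel SK1, at -0.49 ± 0.20, and Chrnb3, a nicotinic receptor subunit that was dim here, at -0.58 ± 0.26. Both were at -0.28 without MCAO replicate 3. Opa3, a mitochondrial protein, differed by 0.02 ± 0.20, Pou6f1, a POU-domain factor, by 0.05 ± 0.17, and Ets1, a founding ETS factor, by 0.02 ± 0.18. The ether-a-go-go potassium channel genes Kcnh2 and Kcnh6 differed by -0.05 ± 0.19 and -0.09 ± 0.17, and the sign of both turned after centring. Of all 25 ETS family genes, 0 passed in either direction, where 3.21% of all probe sets did. The study reported the DNA-binding activity of ETS-1 from a separate assay, and these arrays read only transcripts.

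Other genes that were higher included Fbxo33, an F-box subunit of a ubiquitin ligase, at 8.81, 8.47 and 8.31 with NRG1 and 7.97, 7.79 and 8.16 with vehicle. The groups were apart, and the difference of 0.56 ± 0.17 was 0.65 without MCAO replicate 3, so that array did not carry it. Pdk4, a kinase that inhibits pyruvate dehydrogenase and responds to glucocorticoids, was at 7.89, 7.48 and 7.18 against 6.95, 6.88 and 6.72, also apart. Per2, a repressor of the circadian clock, was higher by 0.57 ± 0.22 with overlap. Pdk4 and Per2 were the only 2 of 26 circadian and glucocorticoid-responsive genes to pass an unadjusted p of 0.05 on deposited values, both higher, and 5 were higher after centring, where 0.827% and 2.08% of all probe sets were. Dppa3, a maternal factor of early embryos, was separated between groups but dim, at 3.68, 4.03 and 3.69 against 3.16, 3.08 and 2.82. Fut4, a fucosyltransferase, was likewise dim, with a difference of 0.56 ± 0.22. The pseudogene Rbbp7-ps1, which may share probes with its parent gene, was higher by 0.71 ± 0.19.

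Among genes that were lower, S100a11, a calcium-binding protein that partners annexins, was at 5.26, 4.92 and 4.42 with NRG1 and 5.80, 5.64 and 6.60 with vehicle. No values overlapped, the sham mean was 6.15 ± 0.33 (SD, n = 4), and the difference was -1.15 ± 0.27, a ratio of 0.452. It was -0.85 without MCAO replicate 3. Fxyd5, which modulates the sodium pump, was at 5.98, 6.11 and 5.85 against 6.54, 6.66 and 6.76 (-0.67 ± 0.16), and -0.62 without that array. Within the list of S100 proteins, annexins and Fxyd regulators, 5 of 31 were lower at an unadjusted p under 0.05 and 0 higher, where 2.38% and 0.827% of all probe sets were. These counts were 2 and 1 after centring (1.03% and 2.08%) and 4 and 0 without MCAO replicate 3 (1.2% each). Anxa2, a membrane-binding annexin that partners S100a10, and S100a6 were among the 5, at -0.50 ± 0.22 and -0.44 ± 0.20, and were not among those apart from vehicle after centring. Ndufv3, a complex I subunit, was at 8.43, 8.33 and 8.22 against 8.83, 8.97 and 9.07, a narrow spread and no overlap (-0.63 ± 0.17). Tfap2d, an AP-2 transcription factor, gave -0.80 ± 0.20 with no overlap. Its sham mean of 4.66 and NRG1 mean of 4.64 both lay at about the background gauge of 4.64. Slc6a20a, a proline transporter found in choroid plexus and meninges, gave -0.74 ± 0.20. Casp6, the executioner caspase-6, was the 1 of 27 apoptosis regulators to be lower at an unadjusted p under 0.05, near the 2.38% of all probe sets (-0.52 ± 0.17), and it was dim.

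MicroRNA genes were among those with the smallest p. Mir122, known for liver, was at 3.57, 3.21 and 3.15 with NRG1 and 4.17, 4.46 and 4.72 with vehicle, against a sham mean of 4.19 ± 0.14 (SD, n = 4). Its groups did not overlap and the difference was -1.14 ± 0.18 (adjusted p = 0.115), but all of its values but one lay below the background gauge of 4.64. Mir139 was at 5.19, 5.10 and 5.06 against 5.76, 5.73 and 5.92, a difference of -0.69 ± 0.18 at a level above the gauge. Mir330, at -0.73 ± 0.20, was dim. The mature sequences of the last pair are shown from RefSeq (GRCr8, chromosome 1), with the seed, bases 2 to 8, in capitals; the probe sets carry the gene name and do not tell the arms apart or the mature form from its precursor.
rno-miR-139-5p: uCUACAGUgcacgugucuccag
rno-miR-139-3p: uGGAGACGcggcccuguuggag
rno-miR-330-5p: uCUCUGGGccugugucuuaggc
rno-miR-330-3p: gCAAAGCAcagggccugcagaga
No seed is shared among these arms.

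Some markers of meninges and vessels had lower values with NRG1, and none passed an adjusted p of 0.05. Of 28 meningeal and perivascular fibroblast markers, 24 of them above the background level, 8 were lower at an unadjusted p under 0.05 and 0 higher on deposited values, where 2.38% and 0.827% of all probe sets were. The counts were 4 and 1 after centring (1.03% and 2.08% of all) and 5 and 1 without MCAO replicate 3 (1.2% each). On deposited values the summed signal of the list (log2) ran from 12.13 to 12.51 on the MCAO arrays. It ran from 11.68 to 12.20 with NRG1 and from 12.67 to 12.99 in sham. After centring the ranges were 12.25 to 12.60, 11.82 to 12.35 and 12.50 to 12.87, so that MCAO and sham overlapped. Col1a1, a chain of type I collagen, was at 5.91, 5.86 and 6.33 with NRG1 and 6.67, 6.69 and 6.68 with vehicle, with no overlap and a sham mean of 7.50 ± 0.32 (SD, n = 4). Fmod, a collagen-binding proteoglycan, read 5.84, 5.48 and 6.68 against 7.06, 6.43 and 6.83. The third NRG1 array was within the vehicle range, as it also was for Aldh1a2, the retinoic acid enzyme of meninges, at 5.91, 5.77 and 6.92 against 7.22, 6.76 and 6.82. Serpinf1, an anti-angiogenic serpin, gave -0.54 ± 0.19 with no overlap. Among defining markers Lum was below the background level, with a mean of 3.94. The part of these cells in the lower values of S100a11, Fxyd5, Anxa2, S100a6 and Slc6a20a was not tested.

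The endothelial list gave 3 lower and 0 higher of 22 measured, all 22 above the background level. The counts were the same after centring, and the share of all probe sets that were lower was 2.38% on deposited values and 1.03% after centring. Ehd2, a caveola protein, was at 5.75, 4.96 and 5.45 with NRG1 and 5.75, 6.13 and 6.31 with vehicle, with 1 NRG1 array almost level with the lowest vehicle array; the sham mean was 7.16 ± 0.12 (SD, n = 4). Cldn5, the main claudin of the blood-brain barrier, was at 5.94, 6.17 and 7.25 against 7.61, 6.85 and 7.30, and the third NRG1 array was again within the vehicle range. Sox18, an endothelial transcription factor, differed by -0.63 ± 0.22. On deposited values the summed signal of the list overlapped between groups. It ran from 11.11 to 11.84 with NRG1 and from 11.61 to 11.77 with vehicle, both below the sham range of 12.02 to 12.28. After centring the ranges were 11.24 to 11.99 with NRG1, 11.59 to 11.88 with vehicle and 11.91 to 12.11 in sham. The NRG1 and sham ranges then overlapped. Of 14 pericyte and smooth muscle markers, 1 was lower at an unadjusted p under 0.05 (2.38% of all), the actin-binding protein gene Tagln (-0.54 ± 0.22).

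Striatal projection neuron markers had the lowest median of the 30 lists on each scale, -0.38 on deposited values, -0.28 after centring and -0.23 without MCAO replicate 3. At an unadjusted p under 0.05, 4 of 14 were lower, 1 after centring and 0 without that array, where 2.38%, 1.03% and 1.2% of all probe sets were. On deposited values the median of the list relative to sham was -0.66, 0.22 and 0.07 on the NRG1 arrays. It was 0.27, 0.02 and 0.55 on the MCAO arrays. NRG1 replicate 1 was thus the low array and MCAO replicate 3 the high one on that scale. Drd2, the D2 dopamine receptor of the indirect pathway, showed it with 7.14, 8.30 and 8.08 against 8.16, 8.42 and 8.86. Ppp1r1b, which encodes DARPP-32, was at 8.91, 9.69 and 9.48 against 9.60, 9.78 and 10.27. Ebf1, a factor of the direct pathway, was at 4.50, 4.29 and 4.89 against 5.21, 4.73 and 5.84. The amount of striatum in each cortical piece and its part in other differences was not tested.

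Of 21 neuron, 13 astrocyte, 16 oligodendrocyte, 14 choroid plexus, 15 neutrophil and 7 red blood cell genes measured, 0 passed an unadjusted p of 0.05 on deposited values, with median differences of -0.05, -0.09, -0.13, -0.03, 0.07 and -0.02. In the same fit 3.21% of all probe sets passed. Of 21 microglia and macrophage markers, 2 were lower, where 2.38% of all probe sets were, and the median difference was -0.18, close to that of the endothelial list (-0.19). It was -0.03 without MCAO replicate 3, against -0.15 for the endothelial list. Tyrobp, the adaptor of activating receptors on microglia, was at 6.05, 5.75 and 5.70 with NRG1 and 5.72, 6.71 and 6.90 with vehicle, with overlap. Cx3cr1, the fractalkine receptor, was at 8.44, 8.28 and 8.33 against 8.56, 8.58 and 9.02, apart by a small margin. On deposited values the median of the neuron list relative to sham was -0.16 to 0.01 on the NRG1 arrays and -0.23 to 0.15 on the MCAO arrays. After centring it was 0.10 to 0.29 and 0.04 to 0.10.

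**Figure D5:**
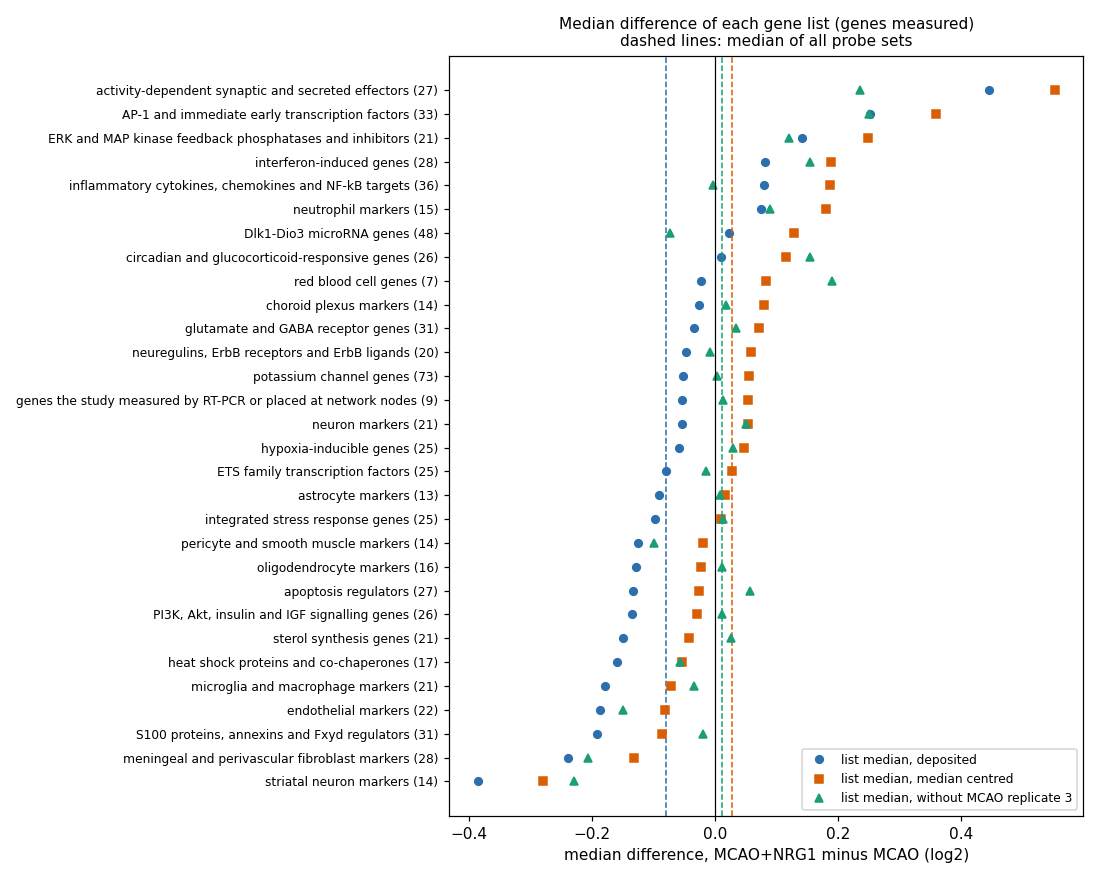
Median MCAO+NRG1 minus MCAO difference (log2, x axis) of 30 gene lists, with the number of genes measured in parentheses, on deposited values, after median centring and without MCAO replicate 3; dashed lines give the median of all probe sets on each scale (-0.08, 0.03 and 0.01). The effector, immediate early and phosphatase lists are highest on deposited and on centred values, and striatal, meningeal and endothelial lists lie at the low end on all 3.

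Heat shock genes and hypoxia-inducible genes, which respond to ischemia, gave 0 of 17 and 0 of 25 higher at an unadjusted p under 0.05 on deposited values, and 0 and 1 lower. Of 25 integrated stress response genes, 1 was higher and 0 lower. Over all probe sets 0.827% were higher and 2.38% lower. After centring, 2 heat shock, 1 hypoxia-inducible and 1 integrated stress response genes were higher and 0 were lower (2.08% and 1.03% of all). On deposited values, of 31 glutamate and GABA receptor genes 0 passed, and of 73 potassium channel genes 1 passed, Kcnn1. Sterol synthesis genes gave 0 of 21. In either direction 3.21% of all probe sets passed. The differences within these lists ran from -0.49 to 0.57.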

How the data were processed

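RNA from the left cortex was hybridised to Affymetrix Rat Gene 2.0 ST arrays, 1 per rat. The deposited table holds log2 expression values. The authors used the RMA algorithm of the R package oligo, which corrects background, quantile-normalizes and summarizes probes. Versions are not given in the sources used here. The deposited medians over all probe sets still differed between arrays, from 4.66 to 5.14. Whether all arrays were normalized together is not stated. No normalization was added in the main comparison. Groups came from the sample titles. Probe sets were named through the platform annotation and a GRCr8 gene table, which held 18504 of the 18511 single symbols; 575 probe sets with several symbols and 17599 with none were left out, and for genes read by more than 1 probe set the brightest on average was used. A linear model with the 3 groups was fitted to all 10 arrays in limma 3.58.1 (R 4.3.3; lmFit, contrasts.fit, eBayes) with Benjamini-Hochberg adjustment over all 18511, and the script was tested on simulated data. The labels call the replicates biological; no pair of arrays held identical values. The number of arrays limits the precision.

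The members, the 30 gene lists and the tests were chosen with earlier results of these data known. Genes are named when called, when among the 12 of smallest p in either direction on deposited or centred values (predicted genes and receptors skipped), among up to 4 of smallest p in each list, or named by the study; other list members given as examples were chosen after their values were seen. Alternatives were median centring, quantile normalization, a filter on dim probe sets, all probe sets, 1 probe set per gene, trend, robust and ordinary variance, array weights, only the 6 occluded arrays, a replicate block, and leaving out each array.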

Additional observations from a re-analysis of the deposited data

How the results depend on the processing

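The count of called probe sets was 1 and was 0 with all probe sets on the array tested, 0 with ordinary variance, 0 with median centring and without MCAO replicate 3, and 2 with array weights (Or8h7b and Mir122). It ranged from 0 to 1 when 1 array was left out, with 0 without MCAO replicate 1 or without MCAO replicate 3. Or8h7b kept its direction in all 22 alternatives, from -2.24 to -1.84, with adjusted p from 0.000413 to 0.887. The number higher at an unadjusted p under 0.05 (153) was 385 with median centring, 336 with quantile normalization, 79 without dim probe sets, 419 with all probe sets and 321 with array weights. It ranged from 81 to 244 when 1 array was left out (81 without MCAO+NRG1 replicate 2, 244 without MCAO+NRG1 replicate 1). The number lower (441) was 191 with median centring, 255 without dim probe sets, 1011 with all probe sets and 205 with median centring and without MCAO replicate 3. It ranged from 222 to 1006 when 1 array was left out (222 without MCAO replicate 3, 1006 without MCAO replicate 1 and 785 without MCAO replicate 2). Fewer or more probe sets were tested with the filter and with all probe sets; the other causes were not tested. The median of the immediate early transcription factors was 0.25, and it was 0.15 with array weights and from 0.22 to 0.38 with 1 array left out.

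Same-numbered arrays of the groups did not deviate together throughout: the correlations of their deviations from the group means, across probe sets, were 0.0914, 0.224 and -0.0596 for numbers 1, 2 and 3. Arrays of unlike number were not compared in this way, so these correlations cannot decide whether same-numbered animals were paired. The main comparison did not treat the numbers as pairs. With the replicate number as a block, 1 probe set was called, 154 were higher and 405 lower at an unadjusted p under 0.05, and the immediate early median was 0.25.

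Of the 83 genes followed through the alternatives, 72 kept their sign in each. The sign turned with median centring and quantile normalization for Erbb3 (0.0531 and 0.0366), Kcnh2 (0.0531 and 0.0433) and Kcnh6 (0.0157 and 0.0048). It turned with array weights for Spry4 (-0.0703), Pou6f1 (-0.025) and Kcnh6 (0.0631), and with median centring and without MCAO replicate 3 for Spry4 (-0.0143), Kcnh2 (0.0059) and Kcnh6 (0.0405). With 1 array left out, the differences ran from -0.0318 to 0.302 for Spry4, -0.0584 to 1.20 for Ifit2, -0.0733 to 1.47 for Rsad2, -0.0372 to 0.0522 for Nrg1, -0.0062 to 0.497 for Erbb2, -0.162 to 0.0457 for Erbb3, -0.102 to 0.154 for Ets1, -0.137 to 0.192 for Opa3, -0.107 to 0.170 for Pou6f1, -0.201 to 0.038 for Kcnh2 and -0.190 to 0.0376 for Kcnh6. The precision of dim genes such as Mir122, Dppa3 and Chrnb3 is limited by their signal, which lay near the background of the array.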
